A study of Homo sapiens with 6 samples.

Results

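Mediator is the large multi-subunit coactivator that carries signals from DNA-bound transcription factors to RNA polymerase II. Its genes were taken from the deposited table as all protein-coding rows named MED followed by a number, with MED12L and MED13L, plus CDK8, CDK19 and CCNC. This gave 33 of the 58735 genes in the table, each found once. The 22 other rows with such names, which are pseudogenes and antisense genes (MED15P9, MED4-AS1 and the like), were left out. The cells were A375, an established human malignant melanoma line. RNA was enriched for poly-A and sequenced in 6 libraries: 3 labelled control and 3 labelled PAL, which stands for a lactate-containing Ringer's solution that had been exposed to low-temperature plasma. The labels give no other difference between the groups, no dose, no exposure time and no statement that replicates came from separate cultures, so the spread behind each p-value is that of these libraries and may be technical only. The number 64 in the names of the PAL columns is not explained in the sources used here.

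The libraries held 15064971 to 17711389 reads assigned to genes. Levels are FPKM, reads per kilobase of gene length and per library size. Of 9 markers of melanocytes and melanoma, 4 were at 1 FPKM or more in every library, led by SOX10, while TYR was at 0 in all. The summed FPKM of that list was 98.2 to 101 in control and 117 to 118 in PAL. That rise was in SOX10, with means of 88.1 in control and 107.6 in PAL. S100B, S100A1 and MITF, the others at 1 FPKM or more in every library, had lower means in PAL. In bulk RNA fewer cells of a kind and less RNA per cell cannot be told apart. KRT1 of keratinocytes and CD3E of T cells were at 0, and the keratinocyte list, mostly KRT10, summed to 31.5 to 36.4 in control and 30.8 to 33.4 in PAL. The fibroblast list summed to 4.08 to 4.67 and 3.08 to 4.43, and the endothelial and blood lists reached at most 0.199 and 0.299 in any library. The part of these levels in the results below was not tested.

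The complex is built of a head, a middle and a tail that hang on the scaffold subunit MED14, and a kinase module that docks reversibly. The head and middle contact RNA polymerase II and the general transcription factors, and the tail is the main landing site of activators. The kinase module, made of CDK8 or its paralog CDK19, cyclin C, MED12 and MED13 or their paralogs, blocks the polymerase from binding while it is docked and also phosphorylates transcription factors. Here MED27 to MED30 were counted with the tail, following structures of the complex, although older schemes place some of them in the head. Treated and untreated cells were compared to see which of these transcripts differ.

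Mediator transcripts did not move one way. MED18, MED9 and MED22 were higher in PAL, with ratios of mean FPKM of 1.63, 1.48 and 1.22, and MED26, MED1 and MED13 were lower, with ratios of 0.586, 0.821 and 0.819. Of 33 members, 31 reached 1 FPKM in 3 or more libraries and were tested with limma on log2(FPKM + 1). At a Benjamini-Hochberg adjusted p below 0.05, 3 rose and 3 fell, or 19.4% of those tested, against 25.9% of all 12258 genes tested (11.4% higher and 14.5% lower). This share near or below the background is no result about the members. Its side of the background depended on the scaling of the libraries and on the model fitted. The members are all protein-coding, while the 12258 genes include other kinds. In a fit of the 10338 protein-coding genes alone, 1491 were higher and 1921 lower, a larger share than of all genes tested. The same 3 and 3 members passed there, so their 19.4% lay further below that background. Shares of all genes given for modules and lists below also include genes that are not protein-coding. The median log2 difference was 0.03 over the members and 0.0043 over all genes tested. The members' median became -0.00097 without control replicate 2 and 0.004 without PAL replicate 2. The libraries of both groups did not overlap for 16 of the 31, 9 higher and 7 lower in PAL, against 44.9% of all genes tested (21.4% higher and 23.6% lower). The summed FPKM of all 33 was 326.0 to 332.0 in control libraries and 325.8 to 332.6 in PAL libraries. That holds for the values as deposited. The FPKM of all genes summed to 273415 to 276114 in control and 259513 to 264299 in PAL. As a part of all FPKM, the members' sum was thus higher in PAL. With every library scaled to the same sum, the median log2 difference was 0.098 over the members and 0.072 over all genes tested.

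**Figure D1:**
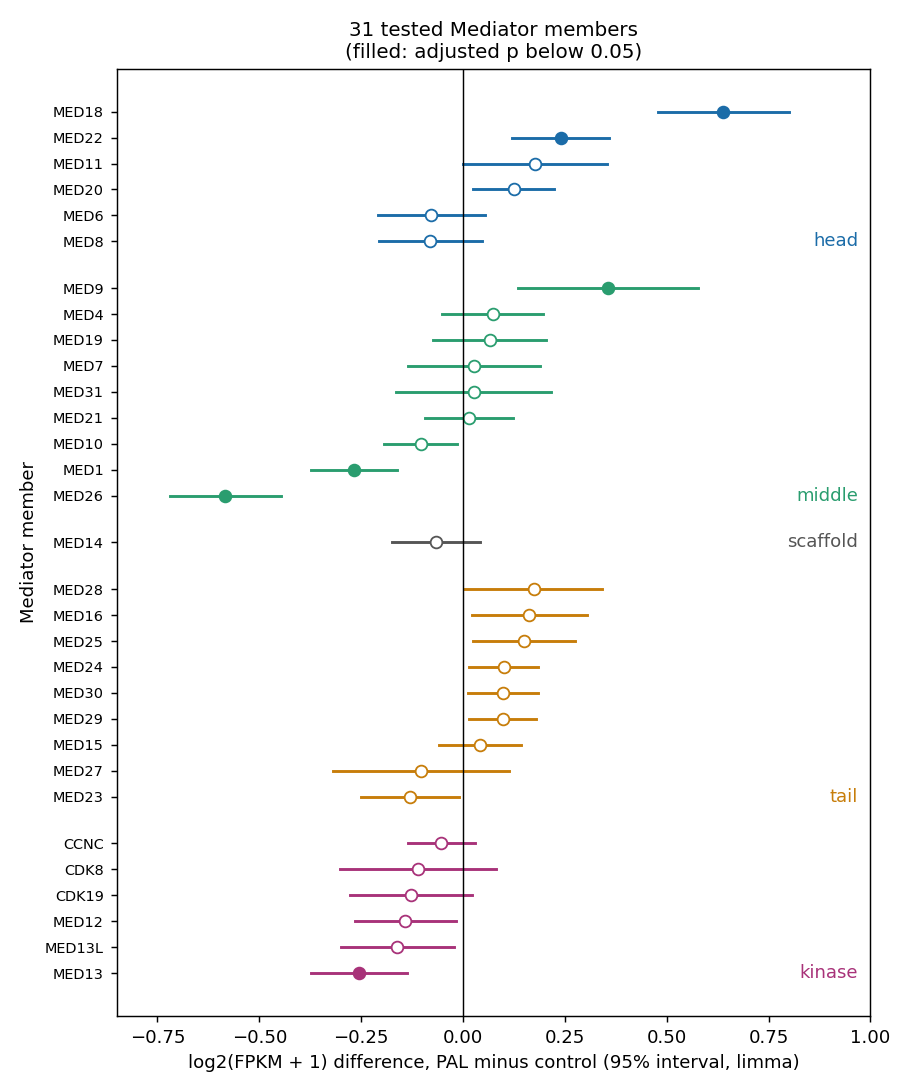
Difference between PAL and control on the log2(FPKM + 1) scale (x axis) for each of the 31 tested members (y axis), grouped by module, with the limma 95% interval over 3 libraries per group; filled points passed at an adjusted p below 0.05. MED18 lies farthest to the right at 0.64 and MED26 farthest to the left at -0.58, and all 6 points of the kinase module lie below 0.

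The number of rises depended on the scaling of the libraries, which the library sizes behind the FPKM set. That size was 0.98 to 0.984 of the reads assigned to genes in control libraries and 1.04 to 1.05 of them in PAL libraries. With the values as deposited 3 members were higher and 3 lower. As TPM, where every library has the same sum, 11 were higher and 3 lower, against 22.0% higher and 9.54% lower among all genes, or 31.5%. The same 11 and 3 came out when libraries were scaled by their plain read totals (25.3% and 9.22% of all genes, 34.5% in all), and 9 and 3 after quantile normalization (16.9% and 11.6%, 28.5% in all). Across all genes, 44.0% of the calls were rises as deposited, 69.7% as TPM, 59.2% after quantile normalization and 73.3% with plain totals. The members added as higher under TPM were MED11, MED16, MED20, MED24, MED25, MED28, MED29 and MED30. Voom, limma's weighted model of read counts, run on the reads recovered from the FPKM of the same genes, called 6 members higher and 5 lower, against 31.8% of all genes (13.7% higher and 18.1% lower). The share of members called was thus 45.2% as TPM and with plain totals and 38.7% after quantile normalization. It was 35.5% in voom, which used the library sizes behind the deposited FPKM. Each was above the share of all genes, while the share in limma as deposited was below it. The members' median log2 difference was 0.098 as TPM, where the median over all genes tested was 0.072. The lower members were MED26, MED1 and MED13 under every one of these scalings and in voom, joined in voom by MED12 and MED13L. MED18, MED9 and MED22 were higher under each scaling and in voom.

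In the head, MED18 had the largest rise of the complex. MED18 pairs with MED20 to form a movable jaw on the head, next to where the polymerase binds. It lies on chromosome 1 (hg38, 28329002 to 28335967). Its FPKM was 7.26, 8.49 and 8.19 in control replicates 1, 2 and 3, and 13.9, 12.1 and 13.0 in PAL replicates 1, 2 and 3. All PAL libraries lay above all control libraries, and the lowest PAL value was well clear of the highest control value. The log2 difference was 0.64 ± 0.07 (SE, n = 3 per group; limma adjusted p = 0.00116), which is rank 87 from the top of 12258 genes. The call held in all 19 alternative settings. Its adjusted p ran from 8.86e-06, in a voom fit added after seeing the data, to 0.0150 in limma.

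The partner of MED18, MED20, measured 8.17, 8.09 and 7.66 FPKM in control and 8.96, 8.48 and 8.91 in PAL. Its groups did not overlap, with PAL above, but it did not pass as deposited (log2 difference 0.12, 95% interval 0.03 to 0.22, limma adjusted p = 0.0690). MED22, which forms a small helical pair with MED11 in the head (chromosome 9, 133338323 to 133348131), was at 5.13, 5.22 and 4.87 FPKM in control and 5.92, 6.53 and 6.08 in PAL. PAL was again above control in all libraries, a rise of 0.24 ± 0.05 (limma adjusted p = 0.0146). That call was lost without PAL replicate 2 (limma adjusted p = 0.0513) or without both libraries numbered 3 (0.0690), and its adjusted p ran from 0.00223 to 0.0690 across 19 alternatives. MED22 starts 83 bases from RPL7A, a ribosomal protein gene that runs the other way, and RPL7A had a mean of 624 FPKM in control libraries and 623 in PAL libraries (limma adjusted p = 0.950).

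MED11 was at 9.71, 10.2 and 10.7 FPKM in control and 13.1, 11.5 and 10.5 in PAL, so PAL replicate 3 fell within the control range (limma adjusted p = 0.128). MED8, which anchors the jaw, had the highest level of the head, with 26.9, 25.4 and 26.2 FPKM in control and 22.8, 25.3 and 26.1 in PAL. PAL replicate 3 lay within the control range, PAL replicate 2 just below it and PAL replicate 1 further below, and MED8 did not pass (limma adjusted p = 0.307). MED6, at the joint of head and middle, had means of 6.17 ± 0.28 (SD, n = 3) and 5.80 ± 0.372 and did not pass (limma adjusted p = 0.342). MED17, the central subunit of the head, had the lowest level and did not reach the filter. It was at 0.746, 0.671 and 0.789 FPKM in control and 0.517, 0.577 and 0.575 in PAL. All control libraries of MED17 lay above all PAL libraries. These values rest on 158 to 203 reads per library, spread over a deposited gene length of 16610 bases. In voom on all genes with at least 30 recovered reads in total, MED17 had a log2 difference of -0.40 ± 0.11 (adjusted p = 0.0120), in a fit that called 23.9% of genes, 13.9% as lower. That fit was added after seeing the data. With limma on log2(FPKM + 1) and no filter, MED17 did not pass.

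In the middle, which links the head to the tail and can open like a hinge, MED26 had the largest fall of the complex. MED26 docks elongation factors onto Mediator and is found mainly in complexes that lack the kinase module. It lies on chromosome 19 (16574907 to 16629062). Its FPKM was 4.23, 3.85 and 4.24 in control and 2.45, 2.27 and 2.51 in PAL. Each PAL library was below each control library, and the spread inside each group was small beside the gap. MED26 fell by 0.58 on the log2(FPKM + 1) scale (SE 0.06, limma adjusted p = 8.61e-04), and by 0.77 on the log2 scale of voom (SE 0.09, adjusted p = 5.29e-06), which does not compress low genes. It passed in all 18 alternatives that tested it, the adjusted p lying between 3.44e-06 and 0.0115. MED26 shares 27.2% of its exon bases with AC008764.1, a gene on the same strand at 0 FPKM. In rank it stood 429 from the bottom of the 12258 genes.

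MED1, the subunit that nuclear receptors bind (chromosome 17, 39404285 to 39451286), was at 18.7, 18.4 and 20.4 FPKM in control and 15.5, 15.6 and 16.1 in PAL. The groups were apart, and MED1 fell by 0.27 (SE 0.04, limma adjusted p = 0.00662), with adjusted p from 7.70e-05 to 0.0309 in 19 alternatives. MED9, a small subunit that pairs with MED4 (chromosome 17, 17476986 to 17493226), was at 1.13, 1.49 and 1.54 FPKM in control and 2.05, 1.85 and 2.24 in PAL. All PAL libraries were above all control libraries, with a rise of 0.36 ± 0.09 (limma adjusted p = 0.0313). The call of MED9 was lost in 8 of 18 alternatives, with no filter (0.0986), a replicate block (0.0563), control replicate 1 or 2 left out (0.0691 and 0.0604), PAL replicate 1, 2 or 3 left out (0.0858, 0.0536 and 0.0904) and with both libraries numbered 3 left out (0.0897). Over these alternatives its adjusted p ran from 0.00308 to 0.0986.

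MED4, the partner of MED9, had means of 17.3 ± 1.18 FPKM (control) and 18.3 ± 0.605 (PAL) (limma adjusted p = 0.341). MED10, the highest of all members, was at 46.4, 50.8 and 48.1 FPKM in control and 45.8, 44.1 and 45.1 in PAL. PAL was below control in every library, and the log2 difference of -0.10 did not pass (limma adjusted p = 0.0835). The hinge pair MED7 and MED21 and their neighbour MED31 differed by 0.03, 0.01 and 0.03 on the log2 scale. The 95% intervals ran from -0.13 to 0.19 for MED7, from -0.09 to 0.12 for MED21 and from -0.16 to 0.22 for MED31, and the adjusted p-values of limma were 0.805, 0.846 and 0.837. MED7 was at 2.77 ± 0.270 and 2.84 ± 0.107 FPKM. MED31 shares 58.4% of its exon bases with TXNDC17 on the other strand, a gene at 16.3 FPKM, so their reads can be mixed unless strand was used in counting, on which the labels are silent. MED19, part of the hook of the middle, was at 13.7 ± 0.473 and 14.4 ± 1.14 FPKM (limma adjusted p = 0.444).

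**Figure D2:**
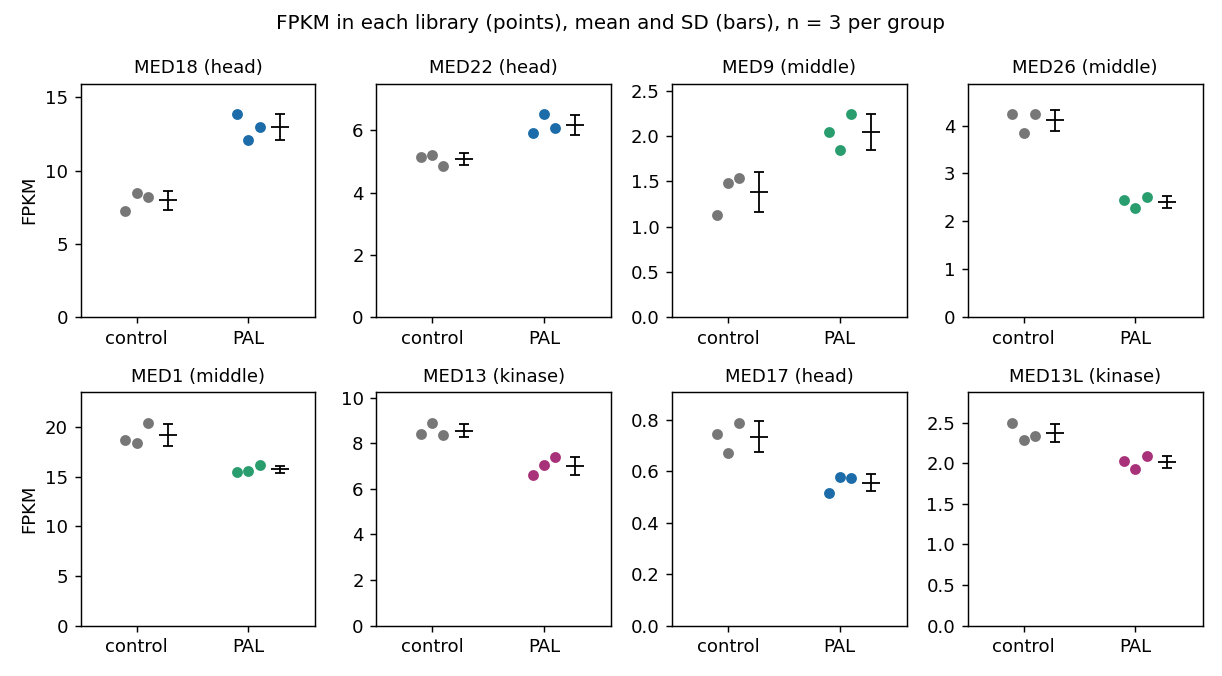
FPKM (y axis, from 0) in each control library (grey points) and each PAL library (coloured points), with mean and SD bars, for the 6 members that passed and for MED17 and MED13L. In all 8 panels the control and PAL points do not overlap, which also held for 44.9% of all genes tested. The first 6 were chosen because they passed. In MED26 the PAL points lie at 2.27 to 2.51 against 3.85 to 4.24 in control.

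The start regions of the members that passed are shown because these transcripts moved in opposite directions within one complex. RefSeq promoter sequences (GRCh38.p14) were matched by symbol for 25 of the 33 members, MED18, MED9, MED26 and MED1 of those that passed among them. Each line gives the 250 bases before the RefSeq start, 5′ to 3′ on the strand of the gene, and capitals mark every match to the motifs named below.
MED18, chr1:28328790-28329039, plus strand, higher in PAL: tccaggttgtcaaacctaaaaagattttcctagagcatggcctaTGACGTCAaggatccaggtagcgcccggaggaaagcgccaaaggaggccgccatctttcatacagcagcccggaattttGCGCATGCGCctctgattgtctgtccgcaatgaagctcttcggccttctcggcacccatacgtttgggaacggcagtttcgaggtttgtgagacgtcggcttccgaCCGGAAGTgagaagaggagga
MED9, chr17:17476750-17476999, plus strand, higher in PAL: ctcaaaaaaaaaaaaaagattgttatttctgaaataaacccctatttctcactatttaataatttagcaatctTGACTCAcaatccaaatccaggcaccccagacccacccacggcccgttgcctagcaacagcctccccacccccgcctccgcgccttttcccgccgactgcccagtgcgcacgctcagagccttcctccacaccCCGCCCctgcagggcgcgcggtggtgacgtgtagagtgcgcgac
MED26, chr19:16628205-16628454, minus strand, lower in PAL: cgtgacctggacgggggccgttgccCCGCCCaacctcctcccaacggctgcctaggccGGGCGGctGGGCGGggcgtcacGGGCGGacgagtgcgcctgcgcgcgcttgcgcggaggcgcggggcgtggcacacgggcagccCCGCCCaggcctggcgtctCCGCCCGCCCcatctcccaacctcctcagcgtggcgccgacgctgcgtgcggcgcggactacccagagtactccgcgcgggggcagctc
MED1, chr17:39451264-39451513, minus strand, lower in PAL: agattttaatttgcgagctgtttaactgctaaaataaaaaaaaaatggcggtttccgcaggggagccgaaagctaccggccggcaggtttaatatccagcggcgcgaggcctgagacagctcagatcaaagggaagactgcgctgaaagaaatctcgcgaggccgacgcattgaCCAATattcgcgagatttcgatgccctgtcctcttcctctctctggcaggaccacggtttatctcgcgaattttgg

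The 4 windows share no motif across all of them. That of MED18 held the ATF/CREB motif TGACGTCA 206 bases before the start, the palindromic NRF1 motif at 127 and the ETS motif CCGGAAGT at 21. These motifs occur, on either strand, in 1.77%, 1.13% and 3.64% of the 27305 promoters of the table. MED26 held 7 matches to the GC box GGGCGG, of which the 2 nearest to the start overlap, in a window of 78.0% G and C, and 42.3% of all promoters hold at least 1. MED9 held the AP-1 motif TGANTCA (6.6% of promoters) and 1 GC box, and MED1 a CCAAT box CCAAT (33%). The AP-1 motif was also in MED17, and the ETS motif also in MED7, MED15 and MED17. Of the 25 members searched, 15 held a GC box and 10 a CCAAT box. The shorter form GAANNTTC of the heat shock element (5.85% of promoters) was in MED19, CDK19 and MED27. The longer form, which contains it and adds another GAA, was found among the 25 members in MED19 alone (0.439% of promoters). The E-box CACGTG (6.49%) was in CDK8 and MED13L, and the TATA motif TATAAA (11.1%) in MED16 and MED7. All motifs were sought on both strands, and a match describes only letters in these windows. A RefSeq start can differ from the outermost start of the gene given above.

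MED14, the scaffold that runs through head, middle and tail, was at 9.36, 9.39 and 9.13 FPKM in control and 8.61, 8.51 and 9.42 in PAL. PAL replicate 3 lay above all control libraries and the other PAL libraries below them, and the difference did not pass (log2 difference -0.07, 95% interval -0.17 to 0.04, limma adjusted p = 0.328). Its antisense neighbour MED14OS shares 2.08% of the exon bases of MED14 and stood at 0.578 FPKM.

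In the tail, 0 of 9 members passed in limma as deposited, against 25.9% of all genes tested. An unadjusted limma p below 0.05 was found for 7, as for 39.5% of all genes tested. Of these 7, MED23 was lower and the others higher. The differences of the 9 members were small, from -0.13 to 0.17, with a median of 0.10. MED15 and those others, or 7 of 9, were above 0, against 51.1% of all genes. In voom on the recovered reads of the same genes, 3 of the 9 were higher and 0 lower (MED16, MED25 and MED28), where 13.7% of all genes were higher. MED28 was at 3.10, 3.50 and 3.84 FPKM in control and 3.85, 4.08 and 4.20 in PAL, so that the nearest libraries of the groups almost touched (limma adjusted p = 0.117, voom 0.0267). MED28 was also the lowest of the tail. MED25, which the viral activator VP16 binds, was at 5.72, 5.08 and 5.68 in control and 5.997, 6.28 and 6.31 in PAL (limma adjusted p = 0.0815, voom 0.0365). MED16, another tail subunit, was at 13.1 ± 0.667 and 14.8 ± 1.09 (limma adjusted p = 0.0872, voom 0.0393).

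MED15, the tail subunit that SREBP and other activators bind through its KIX domain, was at 6.88, 6.49 and 6.87 FPKM in control and 7.04, 7.13 and 6.74 in PAL. These groups overlapped (limma adjusted p = 0.511, 95% interval -0.06 to 0.14). MED23, through which MAP kinase signals and ELK1 reach the EGR1 promoter, was at 4.09, 4.18 and 3.78 in control and 3.63, 3.52 and 3.60 in PAL. It was the only tail member whose PAL libraries all lay below control, and it did not pass (log2 difference -0.13, 95% interval -0.25 to -0.01, limma adjusted p = 0.104). The highest tail member was MED27, at 16.5, 18.1 and 16.3 in control and 14.0, 18.3 and 15.3 in PAL, which overlapped (limma adjusted p = 0.447). MED24, MED29 and MED30 were each higher in every PAL library than in any control library, by 0.10 on the log2 scale, without passing (limma adjusted p = 0.0819, 0.0856 and 0.0908).

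In the kinase module 1 of 6 tested members passed, as lower, which is 16.7% against 14.5% of all genes and so near the background. All 6 had differences below 0, with a median of -0.13, while 51.1% of all genes tested were above 0. Most of the 6 span at least 100 kb, and 68.5% of tested protein-coding genes of that span were below 0. MED13, the arm that ties the module to the core (chromosome 17, 61942605 to 62065282), was at 8.41, 8.89 and 8.36 FPKM in control and 6.61, 7.02 and 7.39 in PAL. The groups did not overlap, and MED13 fell by 0.26 (SE 0.05, limma adjusted p = 0.0113). It passed in all 19 alternatives, the adjusted p lying between 1.65e-04 and 0.0414. Its paralog MED13L was at 2.498, 2.28 and 2.33 in control and 2.03, 1.93 and 2.08 in PAL, also without overlap. MED13L did not pass in limma on log2(FPKM + 1) (log2 difference -0.16, adjusted p = 0.0854) but passed as lower in voom (-0.23, adjusted p = 0.00141) and without the variance trend (adjusted p = 0.0392), and across 18 alternatives the adjusted p ran from 0.00141 to 0.217.

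MED12, which activates the kinase through cyclin C, was at 9.39, 10.6 and 10.1 FPKM in control and 8.81, 8.77 and 9.42 in PAL. PAL replicate 3 reached just above control replicate 1, and MED12 passed as lower in voom (adjusted p = 0.0353) but not in limma as deposited (log2 difference -0.14, adjusted p = 0.0894). Its paralog MED12L was near the detection floor, at 0.235, 0.219 and 0.271 FPKM in control and 0.211, 0.252 and 0.391 in PAL, from 41 to 91 reads per library. MED12L was not tested in limma at the filter used. In addition, 28.8% of its exon bases lie opposite IGSF10, a gene at 0.021 FPKM.

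CDK8, the kinase itself and by FPKM the highest member of its module, was at 10.02, 11.3 and 10.6 FPKM in control and 10.4, 8.52 and 10.4 in PAL. PAL replicate 2 stood below all the other libraries, and the groups overlapped (log2 difference -0.11, 95% interval -0.30 to 0.08, limma adjusted p = 0.355). Its paralog CDK19 was at 1.81, 1.86 and 1.96 in control and 1.74, 1.58 and 1.57 in PAL, with PAL below control in every library but without passing (limma adjusted p = 0.179). CCNC, which encodes cyclin C, was at 10.2, 10.2 and 9.79 in control and 9.61, 9.55 and 9.80 in PAL (limma adjusted p = 0.298). Its difference of -0.05 turned to 0.01 as TPM and 0.02 with plain read totals, so that under those scalings 5 of 6 members of the module were below 0.

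The balance within the paralog pairs was compared by the log2 ratio of FPKM + 1 inside each library, for 3 pairs, with an exact two-sided permutation test over libraries. With 3 libraries against 3 this test cannot give a p below 0.1. The ratio of CDK19 to CDK8 was -2.01 ± 0.0772 in control and -2.03 ± 0.138 in PAL (exact permutation p = 0.9, adjusted 0.9). MED13L to MED13 was at -1.50 ± 0.0825 and -1.41 ± 0.0702 (exact permutation p = 0.3, adjusted 0.45). MED12L to MED12 was at -3.15 ± 0.0889 and -2.96 ± 0.0563 (exact permutation p = 0.1, adjusted 0.3). As MED12L was far below 1 FPKM, the added 1 makes up most of its term in this ratio. With a pseudocount of 0.1 or with recovered reads per length, the exact permutation p was 0.3. As a share of both paralogs by FPKM, CDK19 made up 14.1% to 15.6% in control and 13.1% to 15.7% in PAL, MED13L 20.4% to 22.9% and 21.6% to 23.5%, and MED12L 2.03% to 2.60% and 2.34% to 3.99%, so that all 3 shares overlapped between groups.

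Shares of the summed FPKM of the 33 members are not altered by a single scaling factor per library. The head made up 19.5% ± 0.127 (SD, n = 3) in control and 21.4% ± 0.186 in PAL, and the kinase module 13.3% ± 0.326 and 11.9% ± 0.518. The middle was at 37.9% ± 0.148 and 36.1% ± 0.474, the tail at 26.5% ± 0.213 and 27.9% ± 1.02 and MED14 at 2.82% ± 0.0571 and 2.68% ± 0.135. These shares weigh each member by its level, so MED10 weighs most in the middle and MED8 in the head. MED8 itself was lower in PAL, with means of 26.1 FPKM in control and 24.7 in PAL. The largest rise in FPKM within the head was that of MED18, from 7.98 to 13.0. In the middle, the mean of MED10 went from 48.4 to 45.0 and that of MED1 from 19.2 to 15.8. The medians of log2 differences, which weigh members equally, were 0.15 for the head, 0.03 for the middle, 0.10 for the tail and -0.13 for the kinase module. With MED27 to MED30 placed in the head, its median was 0.11. Then 2 of its 10 tested members were higher and 0 lower, against 11.4% and 14.5% of all genes tested.

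Although the products form one complex, their transcript levels spanned a wide range. The highest and lowest control means, of MED10 at 48.4 FPKM and MED12L at 0.242, differed 200-fold, and 22 of 33 members lay between 5 and 20 FPKM. The deposited gene length equals the union of all annotated exons of GENCODE 29 for all 33 members. It exceeds the length of the main coding transcript by 1.01 times for MED28 to 3.30 times for MED25, so the order of levels depends on the length used. With reads divided by the length of the principal transcript instead, MED17 went from 0.735 to 2.37 in control, MED15 from 6.75 to 21.5, MED25 from 5.49 to 18.1 and MED9 from 1.38 to 3.73. MED15 thereby moved from rank 21 to rank 7 of the 33, and MED25 from 23 to 11, while MED10 and MED8 kept ranks 1 and 2. In the kinase module CCNC, at 23.4, then lay above CDK8, at 12.3. This length changes levels between genes but not the ratio of PAL to control of a gene.

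**Figure D3:**
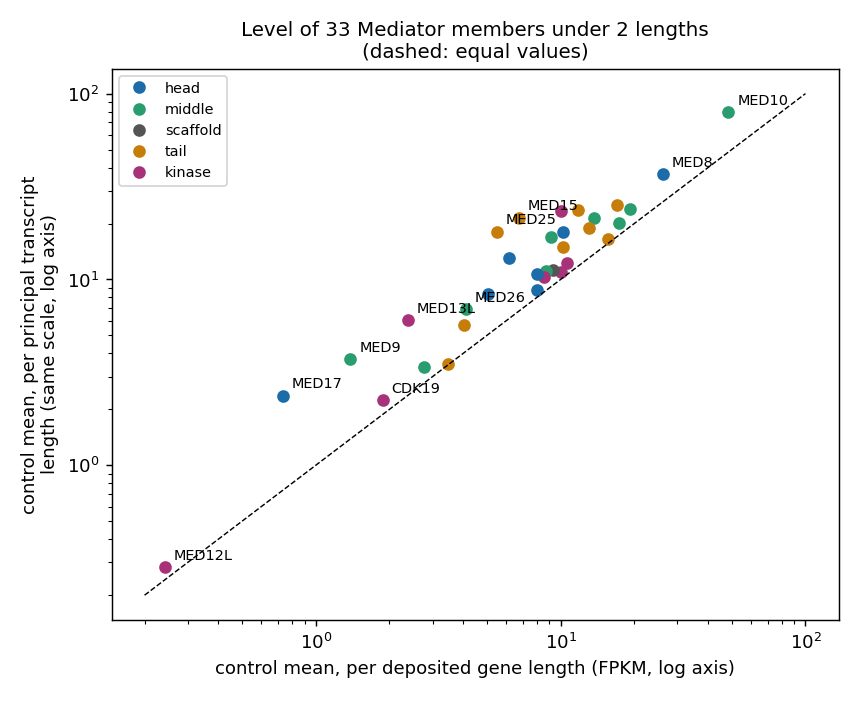
Control mean (n = 3) of each of the 33 members in FPKM by the deposited gene length (x axis, log) and by the length of the principal transcript (y axis, log), coloured by module; the dashed line marks equal values. All points lie on or above the line, with MED17, MED9, MED15 and MED25 far above it, and MED10 is highest and MED12L lowest on both axes.

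Members with long genes tended to be lower. All 5 tested members that span at least 100 kb (MED13, CDK8, CDK19, MED27 and MED13L) had differences below 0, with a median of -0.13. Of 13 that span less than 20 kb, 10 were above 0, with a median of 0.10, and of 13 in between, 7 were above 0, with a median of 0.01. Among all tested protein-coding genes, the median was -0.06 over 1912 genes of at least 100 kb, of which 68.5% were below 0. It was -0.01 over 4691 in between (53.4% below 0) and 0.05 over 3735 below 20 kb (37.5% below 0). The correlation of the difference with log10 gene span was -0.51 (Pearson) and -0.575 (Spearman) over the 31 members, and -0.03 and -0.24 over 10338 protein-coding genes. These are descriptions across genes of the same 6 libraries, which are not independent. Of the kinase module, 4 of 6 tested members span at least 100 kb, so module and span cannot be told apart there.

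**Figure D4:**
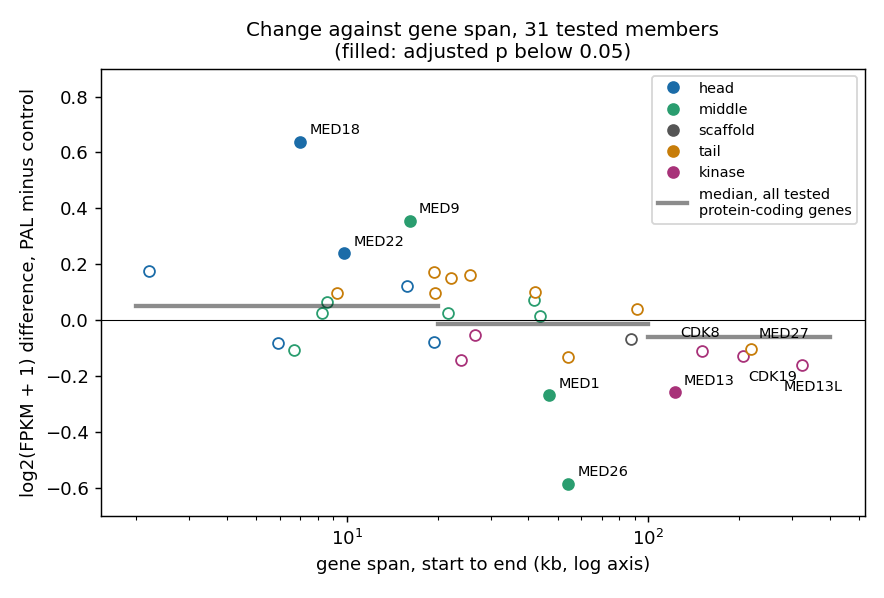
Gene span from start to end in kb (x axis, log) against the difference between PAL and control on the log2(FPKM + 1) scale (y axis) for the 31 tested members, coloured by module, filled where the adjusted p was below 0.05; grey lines give the median of all tested protein-coding genes below 20 kb, from 20 to 100 kb and above. The 3 rises lie below 20 kb, and all 5 points at 100 kb or more lie below 0.

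The machinery that Mediator works with was counted in 6 lists of 71 genes. Of these 69 were tested, 9 were higher and 13 lower, or 31.9% against 25.9% of all genes. In the fit of protein-coding genes alone, 10 were higher and 16 lower. In the fit of all genes, the share called was 41.7% for RNA polymerase II, 12.5% for TFIID and 28.6% for TFIIA, TFIIB, TFIIE and TFIIF. It was 22.2% for TFIIH, 26.7% for the SAGA coactivator and 70.0% for enhancer cofactors and cohesin. Of 12 subunits of RNA polymerase II, 3 were higher and 2 lower. The lower ones were its largest subunits, POLR2A at 48.5 ± 2.56 FPKM in control and 42.1 ± 0.954 in PAL (limma adjusted p = 0.0149) and POLR2B at 47.7 ± 0.908 and 42.5 ± 1.47 (0.0132). Both of these calls were lost with plain read totals, that of POLR2B as TPM and that of POLR2A without PAL replicate 1, with adjusted p up to 0.0642 for POLR2A and 0.108 for POLR2B. POLR2D rose from 9.11 ± 0.424 to 10.6 ± 0.363 and POLR2J from 36.3 ± 2.45 to 41.7 ± 0.485. The call of POLR2D was lost without PAL replicate 1 or 3 and that of POLR2J without any 1 library but control replicate 3, with adjusted p up to 0.0677 and 0.0812. That of POLR2D was also lost without both libraries numbered 3 (0.0861) and that of POLR2J without a filter (0.0727). In TFIID, 0 of 16 were higher and 2 lower: TAF7, which restrains the start of transcription within TFIID, fell from 88.2 ± 3.04 to 58.9 ± 1.85 FPKM (limma adjusted p = 9.31e-05), and TAF13 from 36.5 ± 2.07 to 32.3 ± 1.37, a call lost in 12 of 19 alternatives, among them leaving out any 1 library but control replicate 1 (adjusted p up to 0.133) and plain read totals (0.213).

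Among TFIIA, TFIIB, TFIIE and TFIIF, 2 of 7 were higher and 0 lower, GTF2E1 (0.37) and GTF2B (0.16), and these calls were lost in 7 of 18 and 9 of 19 alternatives. For GTF2E1 these include leaving out control replicate 1 or any PAL library, and for GTF2B control replicate 1 or 2 or PAL replicate 1 or 3 (adjusted p up to 0.101 and 0.118). In TFIIH, 0 of 9 were higher and 2 lower. CDK7, the TFIIH kinase of the polymerase tail, fell from 23.4 ± 1.13 to 18.7 ± 0.884 FPKM (limma adjusted p = 0.00497) in all alternatives, and GTF2H1 fell by 0.14, a call lost in 10 of 19, among them any 1 library but control replicate 1 left out (adjusted p up to 0.0885) and plain read totals (0.206). In SAGA, another coactivator, 4 of 15 were higher and 0 lower, with TAF6L from 7.63 ± 0.225 to 9.85 ± 0.310 (limma adjusted p = 0.001996) and TADA1 up by 0.36, a call lost without control replicate 2, PAL replicate 2 or PAL replicate 3 (adjusted p up to 0.0820), without a filter (0.0747), with a replicate block (0.0518) and without both libraries numbered 3 (0.0739). Of 10 enhancer cofactors and cohesin genes, 7 were lower and 0 higher, against 14.5% and 11.4% of all genes tested. As this list, like the others, was chosen with earlier results of these data known, its count is a description only. Over all 6 lists the falls dropped from 13 to 7 as TPM and to 6 with plain read totals. STAG2, a cohesin subunit, fell from 10.9 ± 0.377 to 8.66 ± 0.379 (limma adjusted p = 0.00450) and EP300, a histone acetyltransferase of enhancers, from 7.91 ± 0.335 to 6.41 ± 0.318 (limma adjusted p = 0.00986), a call lost without both libraries numbered 3 (0.0573).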

How the data were processed

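Gene expression was measured by RNA sequencing in 6 libraries of A375 cells, grouped by sample title. The authors deposited 1 FPKM value per gene and library beside gene length, per the file headers. The build hg38 is named in the submitters' processing notes. No source used here gives the aligner, the counting tool or the use of strand. FPKM times length fell on whole steps in each library (100% of values within 0.01), so reads were recovered. Genes at 1 FPKM or more in at least 3 libraries were fitted with limma 3.58.1 in R 4.3.3 on log2(FPKM + 1) with a variance trend, two-sided, Benjamini-Hochberg adjusted, threshold 0.05, 4 residual degrees of freedom; the log2 scale understates changes of low genes. The fit was tested on simulated data. Members and lists were chosen with earlier results of these data known. Values in every library were planned for members that passed, kinase-module paralogs, the highest and lowest member of each module and MED1, MED14, MED15, MED23 and MED26, and those of other members were added after they were seen. Of each machinery list, up to 2 rises and 2 falls are named. Alternatives were other pseudocounts, filters, scalings, voom, a replicate block and libraries left out. Figures were drawn with matplotlib 3.10.9. Replicates differed by more than counting noise, with chi-square over degrees of freedom of 1.97 to 3.99 inside groups.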

Additional observations from a re-analysis of the deposited data

How the results depend on the processing

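Directions of MED18, MED26, MED1 and MED13 and their calls held in every alternative that tested them. Genes called higher numbered 1399 and lower 1780, and among members 3 and 3. Without a filter on low values 765 genes were higher, and 5 genes of the machinery lists against 9. As TPM, 2697 genes were higher and 1170 lower, with 11 members higher and 21 machinery genes higher and 7 lower against 9 and 13. With plain read totals these were 3097, 1130, 11, 24 and 6. Quantile normalization gave 9 higher members and 14 higher machinery genes, with 16.9% of all genes higher. Voom gave 6 higher and 5 lower members, and with at least 30 reads in all, chosen after seeing the data, 6 and 6. Without both libraries numbered 3, 939 genes were higher and 1330 lower, or 18.5% of all genes. Then 1 member was higher and 3 lower, or 12.9%, and 5 machinery genes were higher and 7 lower. With 1 library left out, genes higher ranged from 688 to 1202, genes lower from 1167 to 1587, members higher from 1 to 3, machinery genes higher from 4 to 11 and lower from 8 to 12.

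The head median of 0.15 became 0.16 with a pseudocount of 0.1, 0.12 without a filter, 0.23 as TPM, 0.18 by quantiles, 0.23 with plain totals, 0.17 by voom, 0.14 by voom with 30 reads and 0.11 with MED27 to MED30 in the head, and ranged from 0.11 to 0.18 with 1 library left out. The middle median of 0.03 became 0.098 as TPM, 0.091 with plain totals and -0.00066 without both libraries numbered 3, and ranged from -0.00097 (without control replicate 2) to 0.042 with 1 library left out. The tail median of 0.10 became 0.17 as TPM, 0.14 by quantiles and 0.18 with plain totals. The kinase median of -0.13 became -0.17 with a pseudocount of 0.1, -0.10 as TPM, -0.069 with plain totals and -0.18 by voom. The median over all genes tested, 0.0043 as deposited, itself became 0.072 as TPM, 0.032 by quantiles and 0.075 with plain totals. Differences near 0 turned sign: with plain totals MED8 (0.0021), CCNC (0.024) and MED14 (0.011), as TPM CCNC (0.012), and without both libraries numbered 3 MED31 (-0.00066) and MED7 (-0.022). With 1 library left out, the difference ranged from -0.021 to 0.041 for MED21, from -0.041 to 0.078 for MED31 and from -0.030 to 0.072 for MED7. The difference between PAL and control in the log2 ratio of CDK19 to CDK8 then ranged from -0.093 to 0.043. The cause was not tested.

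Same-numbered libraries did not deviate together (r = -0.0239, 0.0273 and -0.0447), so the numbers were not taken as pairs. With a replicate block, 838 genes were higher and 1293 lower, and 2 members higher and 3 lower, as MED9 no longer passed. MED12L rests on the fewest reads, 41 to 91 per library, and MED7, MED9 and MED17 on 112 to 150, 107 to 248 and 158 to 203.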
